A study of Arabidopsis thaliana with 48 samples.

Results

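HAT2 (AT5G47370) and FHL (AT5G02200) are a pair of Arabidopsis thaliana genes known as markers of the response to shade. Each was read by the probe set whose single gene it is (1 for each), so the genes described are 2 of 13356 that a single-gene probe set named, and their probe sets 2 of 22746 tested. Levels are deposited log2 expression values from Affymetrix ATH1 arrays, on which a step of 1 is a 2-fold difference. HAT2 gave a mean of 7.17 over all 48 arrays, above the mean of 84.2% of probe sets. FHL gave 3.23, above 33.8%, so it was read in the dim part of the array, and no detection calls were used here. The levels of these probe sets are not compared with each other, because each has its own probes.

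HAT2 encodes a transcription factor of the class II homeodomain-leucine zipper (HD-Zip II) family, whose genes respond quickly to a fall in the ratio of red to far-red light and whose members repress other genes. HAT2 itself is also induced by auxin. FHL encodes the FHY1-like protein, which with its relative FHY1 carries the light receptor phytochrome A into the nucleus. In seedlings, phytochrome-interacting factors (PIFs) are bHLH transcription factors that accumulate in darkness, promote elongation of the hypocotyl (the seedling stem) and activate many shade-responsive genes, and light-activated phytochromes cause their loss.

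All seedlings grew on medium with 3% sucrose under short days until dawn of day 4, when 3 cycles a day of 160 min light and 320 min dark began. Col, the unmodified accession (21 arrays), and CCA1OX, a line overexpressing the clock transcription factor CCA1 (21 arrays), were sampled in the light at minute 120 of the day, in the dark at minute 280, in the light at minute 1080 and in the dark at minute 1240. The double mutant pif4 pil5 (6 arrays), changed in genes of PIF factors, was sampled in the dark at minute 280. Groups of the dark 280 time held 6 arrays per line and all other groups 5. Hypocotyls were labelled as growing in Col at dark 280 and in CCA1OX at dark 280 and dark 1240, and as not growing in Col at dark 1240, in pif4 pil5 and in every light group. The promoter that drives CCA1 and the mutant alleles are not given in the sources used here. Each array held RNA of pooled seedlings from day 4, 5 or 6 after germination and from 1 of 2 time courses, so p-values measure the spread between pooled samples from these days and courses. In such bulk RNA, fewer cells expressing a gene and less RNA per cell cannot be told apart.

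The Col and CCA1OX arrays of the first time course carry earlier array dates (the first campaign, 24 arrays), and those of the second course, with all of pif4 pil5, carry later dates (the second campaign, 24 arrays). In 3 arrays of the first campaign, light-responsive genes went against the label. This was read from a darkness score, the mean of 131 dark-high probe sets minus that of 289 light-high ones, both chosen in the second campaign without HAT2 and FHL. Col dark 280 replicate 3 scored -1.42, CCA1OX dark 280 replicate 2 scored -1.27 and Col light 1080 replicate 3 scored 1.17. Col and CCA1OX light 120 replicate 1 lay between light and dark at -0.40 and -0.53, where the remaining light arrays scored -1.06 to -2.08. Col dark 1240 replicates 1 and 4 also lay between, at 0.11 and 0.02. The dark arrays not named here scored 0.32 to 2.04. Every array was kept under its label. Several results that rest on the 3 arrays against their label are also given without them (45 arrays). Such a choice by light genes is not independent of a light to dark comparison. Of the tissue markers listed, 1 of 6 for green tissue, 2 of 6 for roots and 0 of 5 for seed storage were named on the array. RCA of green tissue stood at 11.2 in Col light 120 replicate 4 and at 11.0 in Col dark 280 replicate 4, both from day 4 of the second time course, and at 12.2 to 12.8 in the other 46 arrays. PYK10 of roots stood between 11.4 and 12.3, and AT5G66390, also of roots, between 6.50 and 9.10 over all arrays.

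In Col, HAT2 was most variable in the light at minute 120, with levels of 8.23, 7.77 and 6.96 in replicates 1 to 3 and 6.15 and 6.83 in replicates 4 and 5. In the dark at minute 280 its lowest level was 6.71, its median 7.81 and its highest 8.46. The light and dark arrays of this early cycle overlapped, and the highest light array, replicate 1, was also the one whose light genes lay between light and dark. The lowest light and the lowest dark array were the replicates 4 with low RCA; the part of this marker in their HAT2 level was not tested. In the light at minute 1080 HAT2 stood at 6.77, 7.20, 7.40, 6.24 and 6.80 in replicates 1 to 5, and in the dark at minute 1240 at 6.52, 6.89, 7.06, 6.53 and 7.41. These late arrays covered nearly the same range in light and dark. The lowest arrays of dark 1240, replicates 1 and 4, were those whose light genes lay between light and dark. The part of this in their HAT2 level was not tested.

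In CCA1OX, HAT2 stood at 7.48, 6.94, 6.98, 6.45 and 6.54 in light 120 replicates 1 to 5. In dark 280 its lowest level was 6.82, its median 7.99 and its highest 8.51, and the lowest array was replicate 2, which stood apart by its light genes. The other 5 dark arrays all lay above the highest light array. In light 1080 HAT2 gave 6.70, 6.72, 7.20, 6.63 and 6.60, and in dark 1240 it gave 8.04, 7.92, 8.21, 8.20 and 8.11. The late light and dark arrays did not overlap, and dark 1240 was the tightest of the 9 groups, with an SD of 0.12. The share of all probe sets without overlap is not given here, for this or any later pair of groups. In pif4 pil5 the lowest level of HAT2 was 6.05, the median 6.23 and the highest 6.47, so every mutant array lay below every Col and CCA1OX array of the same time.

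FHL in Col light 120 stood at 3.24, 2.67, 2.59, 2.73 and 2.47 in replicates 1 to 5. In Col dark 280 its lowest level was 2.60, its median 3.46 and its highest 4.04. These groups overlapped, and the low dark arrays were replicate 4 at 2.60 and replicate 3 at 2.92. In Col light 1080 FHL gave 2.38, 2.62, 3.71, 2.64 and 2.48, where the high array, replicate 3, was the light array whose light genes looked dark. In Col dark 1240 it gave 3.03, 3.20, 3.20, 3.26 and 3.37, all above the other 4 light arrays of that cycle and all below replicate 3.

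FHL in CCA1OX light 120 gave 3.69, 2.76, 2.75, 2.72 and 2.78, with replicate 1 alone above 3. In CCA1OX dark 280 the lowest level was 2.99, the median 4.15 and the highest 4.66. The lowest array was again replicate 2, and the other 5 lay above every light array. In CCA1OX light 1080 FHL gave 2.85, 3.13, 2.98, 2.76 and 2.54, and in dark 1240 it gave 4.37, 4.28, 3.46, 4.69 and 4.54, with no overlap. In pif4 pil5 the lowest level was 2.67, the median 2.73 and the highest 3.19, within the range of the light groups.

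**Figure D1:**
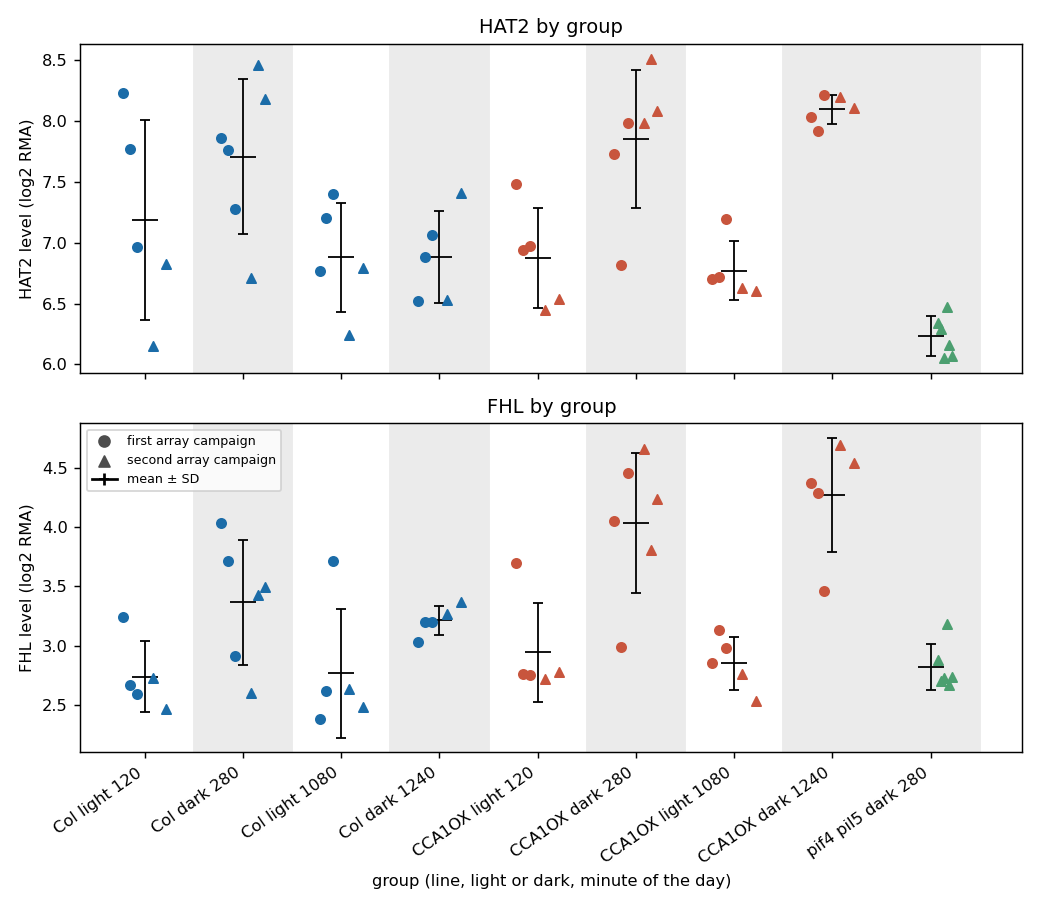
Levels of HAT2 (top) and FHL (bottom), in log2 RMA units, in each array of the 9 groups. Circles are arrays of the first campaign, triangles those of the second, horizontal marks with bars are means ± SD, and grey bands mark dark groups. CCA1OX dark 1240 had the highest mean for both genes (8.10 and 4.27), and pif4 pil5 the lowest for HAT2 (6.23).

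Ordered by mean, HAT2 was highest in CCA1OX dark 1240 (8.10 ± 0.12, SD, n = 5), followed by CCA1OX dark 280 (7.85 ± 0.57, n = 6) and Col dark 280 (7.71 ± 0.63, n = 6), the groups labelled growing. Then came Col light 120 (7.19 ± 0.82), Col dark 1240 (6.88 ± 0.38), Col light 1080 (6.88 ± 0.45), CCA1OX light 120 (6.88 ± 0.41) and CCA1OX light 1080 (6.77 ± 0.24), each n = 5, and last pif4 pil5 (6.23 ± 0.17, n = 6). Of the 8 steps in this order, the last, of 0.54 from CCA1OX light 1080 to pif4 pil5, was larger than the larger SD of the neighbours it separated, and the other 7 were smaller.

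FHL was also highest in CCA1OX dark 1240 (4.27 ± 0.48, n = 5) and CCA1OX dark 280 (4.03 ± 0.59, n = 6). Next were Col dark 280 (3.36 ± 0.53, n = 6), Col dark 1240 (3.21 ± 0.12, n = 5), CCA1OX light 120 (2.94 ± 0.42, n = 5) and CCA1OX light 1080 (2.85 ± 0.22, n = 5). The lowest were pif4 pil5 (2.82 ± 0.19, n = 6), Col light 1080 (2.77 ± 0.54, n = 5) and Col light 120 (2.74 ± 0.30, n = 5). Here the step larger than the neighbours' spread was that of 0.67 from CCA1OX dark 280 to Col dark 280, and the other 7 were smaller. The means of the growing groups spanned 7.71 to 8.10 for HAT2 and 3.36 to 4.27 for FHL.

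The early cycle of Col asks which genes differ when the dark falls at the time of growth. In Col, HAT2 was 0.52 ± 0.28 (log2 difference ± SE, limma, adjusted p = 0.525) and FHL 0.62 ± 0.24 (adjusted p = 0.265) higher in dark 280 than in light 120, so 0 of the 2 genes passed the threshold of 0.05, against 1.02% of all probe sets. Within days of a time course, HAT2 was higher in the dark in 3 of 5 pairs and FHL in 4 of 5. With 45 arrays FHL passed, at 0.71 (adjusted p = 0.0361), where 4.26% of probe sets did, and HAT2 did not, at 0.61 (adjusted p = 0.272). Without the replicates 4 low in RCA the differences were 0.46 for HAT2 and 0.77 for FHL, neither past the threshold (adjusted p = 0.606 and 0.198). Left out singly, these arrays moved HAT2 in opposite directions, to 0.26 without light 120 replicate 4 and 0.72 without dark 280 replicate 4, and over all single arrays left out HAT2 ranged from 0.26 to 0.78 (adjusted p from 0.181 to 0.781). By campaign the HAT2 difference was -0.02 (first, adjusted p = 0.996) and 1.30 (second, adjusted p = 0.113). The means behind these values were 7.65 in light 120 and 7.63 in dark 280 in the first campaign, and 6.49 and 7.78 in the second, so the light means lay further apart between campaigns than the dark means.

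In CCA1OX the same step gave a call for FHL, and the difference between the lines at this step was not tested. FHL rose by 1.09 ± 0.24 (adjusted p = 0.0200), or 2.13-fold, and HAT2 was higher by 0.98 ± 0.28 (adjusted p = 0.0636), so 1 of 2 passed, against 1.43% of probe sets. HAT2 passed with replicate and day as blocks (0.98, adjusted p = 0.0484) and with the set of array dates as a block (0.93, adjusted p = 0.0465). FHL was higher in the dark in 5 of 5 pairs of the same day and course and HAT2 in 4 of 5, the exception being the day of replicate 2. The call for FHL was lost without any of 6 of the 11 single arrays, light 120 replicates 2, 4 and 5 and dark 280 replicates 3, 4 and 6 (adjusted p up to 0.0700), and that for HAT2 was gained without light 120 replicate 1 (1.13, adjusted p = 0.0369) or dark 280 replicate 2 (1.18, adjusted p = 0.00637). With 45 arrays HAT2 passed (1.18, adjusted p = 0.00372), as did FHL (1.30), where 5.57% of probe sets did. In the second campaign alone both passed, HAT2 at 1.70 (adjusted p = 0.0133) and FHL at 1.48 (adjusted p = 0.00158), against 3.59% of probe sets, and in the first neither did, at 0.38 and 0.76 (adjusted p = 0.998 for each).

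The late cycle repeats the step at a time of day when hypocotyls of Col did not grow and those of CCA1OX did. In Col, HAT2 differed by 0.00 ± 0.29 (adjusted p = 1.00, 95% confidence interval -0.58 to 0.59) and FHL by 0.45 ± 0.26 (adjusted p = 0.892) between dark 1240 and light 1080. Thus 0 of 2 passed, against 0.0747% of probe sets. Dark 1240 replicates 1 and 4, whose light genes lay between light and dark, are part of this comparison. FHL was higher in the dark in 3 of 4 pairs of the same day and course, and lower on the day of light 1080 replicate 3. HAT2 was lower in the dark in 3 of these 4 pairs, with a median difference of -0.28. Without the 3 arrays the FHL difference was 0.68 (adjusted p = 0.0963). For HAT2 the sign differed between the first and second campaign (-0.30 and 0.45), while FHL gave 0.24 and 0.76, none past the threshold.

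In CCA1OX both genes rose from light 1080 to dark 1240, against 4.32% of probe sets past the threshold. HAT2 rose by 1.32 ± 0.29, or 2.51-fold (adjusted p = 0.00439), and FHL by 1.42 ± 0.26, or 2.67-fold (adjusted p = 0.000751). Each was higher in 4 of 4 pairs of the same day and course, and neither lost its call when any single array was left out (adjusted p up to 0.0155 for HAT2 and 0.00422 for FHL). In the first campaign alone, with 3 arrays a group, the differences were 1.18 and 1.05 and missed the threshold (adjusted p = 0.254 and 0.387), and in the second they were 1.54 and 1.97 and passed it. The share of all probe sets that passed in these single-campaign fits is not given here, so the passes in the second cannot be set against it.

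**Figure D2:**
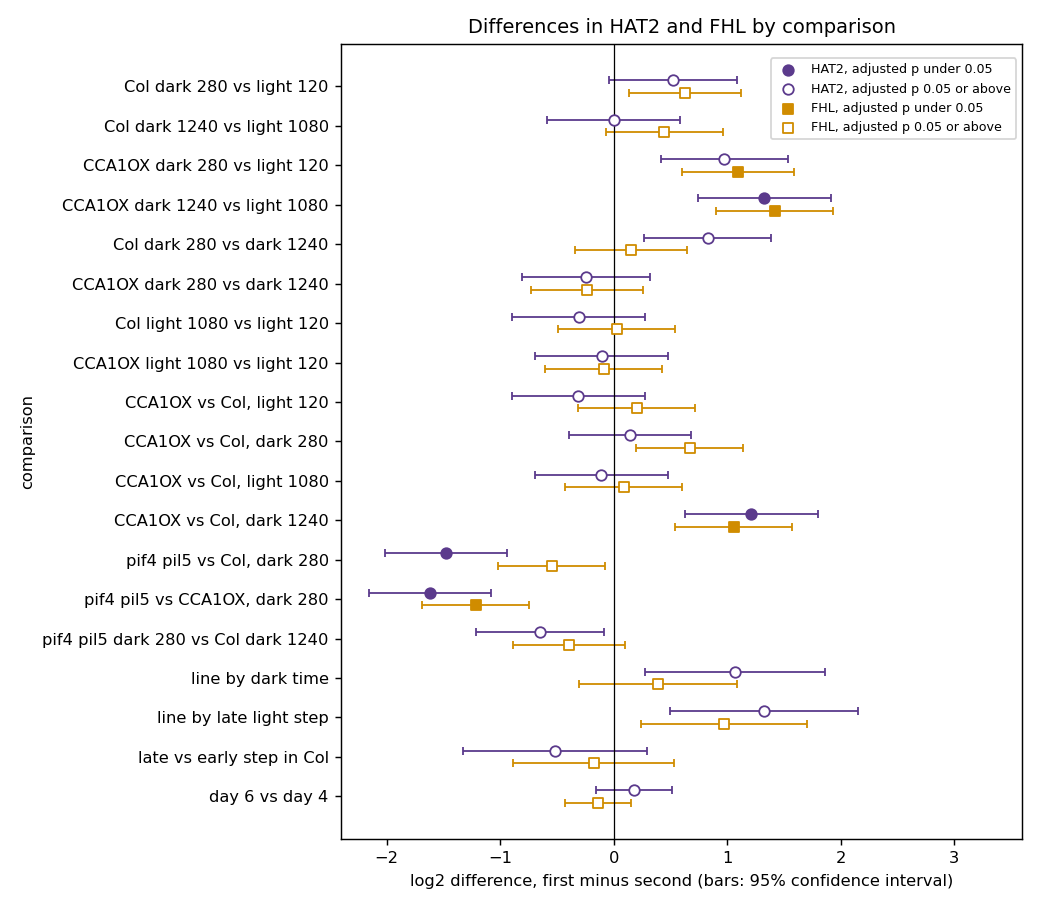
Log2 differences of HAT2 (circles) and FHL (squares) in each comparison, first group minus second, with 95% confidence intervals as bars. Filled symbols passed an adjusted p of 0.05 over all probe sets; they lie at the CCA1OX dark steps, at dark 1240 between the lines and in the comparisons of pif4 pil5 at dark 280.

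Whether the late step differed between the lines was tested directly. The step of CCA1OX minus that of Col was 1.32 ± 0.41 for HAT2 (unadjusted p = 0.00246) and 0.97 ± 0.36 for FHL (unadjusted p = 0.0102), but the adjusted p was 1.00 for each. With limma 0% of probe sets passed in this test, and 541 had an unadjusted p under 0.05. The late step of Col minus its early step was -0.52 ± 0.40 for HAT2 and -0.18 ± 0.35 for FHL (adjusted p = 1.00 each), again with 0% of probe sets past the threshold in limma and 519 at an unadjusted p under 0.05.

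The dark times of Col set a growing against a non-growing state, both labelled dark but at different times of day. By their light genes dark 1240 replicates 1 and 4 lay between light and dark (darkness scores 0.11 and 0.02). Dark 280 replicate 3 scored as light (-1.42). The part of this in the differences was not tested. HAT2 was higher by 0.83 ± 0.28 at dark 280 than at dark 1240, in 5 of 5 pairs of the same day and course, but missed the threshold (unadjusted p = 0.00488, adjusted p = 0.655). FHL differed by 0.15 ± 0.24 (adjusted p = 0.999), with 3 of 5 pairs higher at dark 280. So 0 of 2 passed, against 0.101% of probe sets. Without dark 280 replicate 4, which had low RCA, the HAT2 difference was 1.03 (adjusted p = 0.218, and 0.111 when both low-RCA arrays were left out). The HAT2 difference was 0.81 in each campaign alone, while FHL gave 0.41 in the first campaign and -0.15 in the second.

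In CCA1OX, labelled growing at both times, the difference between dark 280 and dark 1240 was -0.24 ± 0.28 for HAT2 and -0.24 ± 0.24 for FHL (adjusted p = 1.00 each). With limma 0% of probe sets passed here and 303 had an unadjusted p under 0.05. The 95% confidence intervals ran from -0.80 to 0.32 for HAT2 and from -0.73 to 0.26 for FHL. Without the 3 arrays, of which dark 280 replicate 2 enters here, the differences were -0.04 and -0.03. The difference between the lines at dark 1240 minus that at dark 280 was 1.07 ± 0.39 for HAT2 (unadjusted p = 0.00943) and 0.39 ± 0.35 for FHL (unadjusted p = 0.268). Neither passed after adjustment (adjusted p = 1.00 each). In this test limma called 0% of probe sets, with 381 at an unadjusted p under 0.05.

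In the light, the times of day did not differ past the threshold for either gene. In Col, light 1080 minus light 120 was -0.31 ± 0.29 for HAT2 and 0.03 ± 0.26 for FHL (adjusted p = 0.999 each), with 0 of 2 called against 0.0659% of probe sets. In CCA1OX it was -0.11 ± 0.29 and -0.09 ± 0.26 (adjusted p = 1.00 each), where limma called 0% of probe sets and 655 had an unadjusted p under 0.05. For FHL in Col the direction turned to -0.21 without the 3 arrays.

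**Figure D3:**
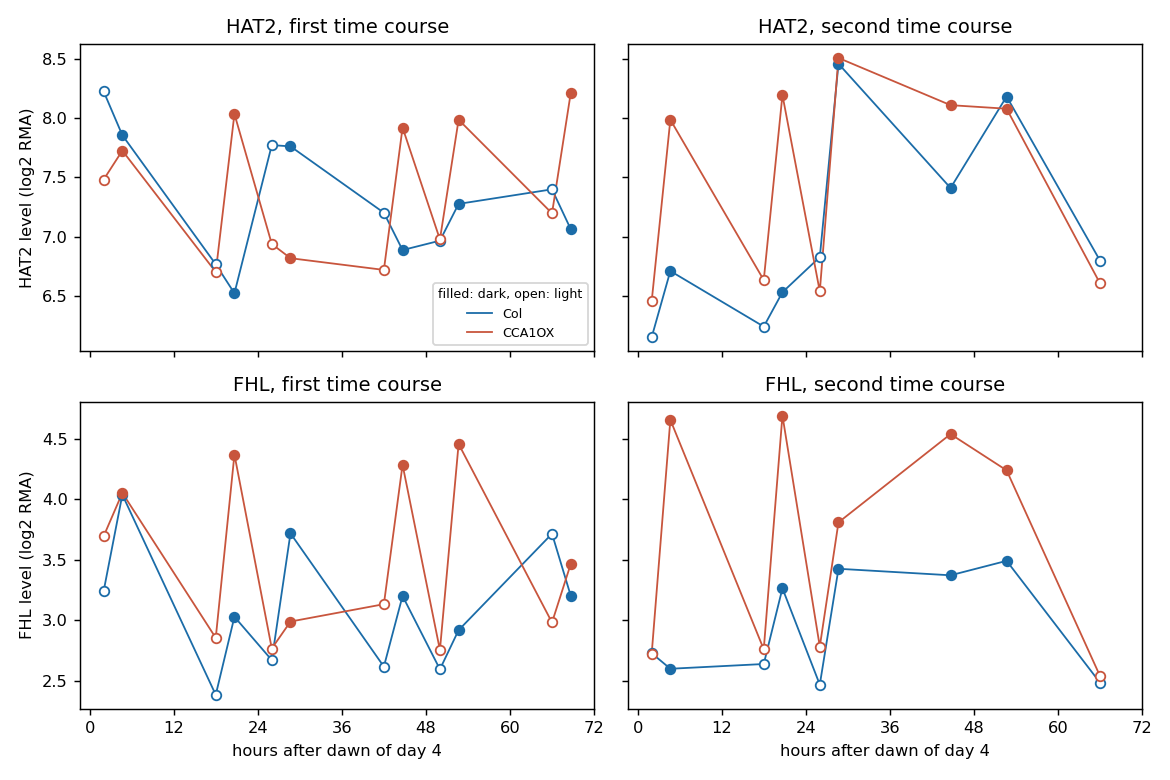
Levels of HAT2 (top) and FHL (bottom) in Col and CCA1OX against hours after dawn of day 4, in the first (left) and second (right) time course, with filled points in the dark and open points in the light. In CCA1OX all 5 arrays of dark 1240 lie between 7.92 and 8.21 for HAT2, while those of Col lie between 6.52 and 7.41.

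The lines were compared at each time to separate time of day from genotype. In the light at minute 120, CCA1OX minus Col was -0.31 ± 0.29 for HAT2 (adjusted p = 0.706) and 0.20 ± 0.26 for FHL (adjusted p = 0.795), with 0 of 2 called against 0.246% of probe sets. In the light at minute 1080 it was -0.11 ± 0.29 and 0.09 ± 0.26 (adjusted p = 0.965 and 0.966), with 0 of 2 called against 0.154%. The arrays of the lines overlapped in each of these light comparisons.

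In the dark at minute 280 HAT2 differed between the lines by 0.14 ± 0.27 (adjusted p = 0.955, 95% confidence interval -0.39 to 0.68), with 3 of 6 pairs of the same day and course higher in CCA1OX. FHL was 0.67 ± 0.23 higher in CCA1OX, in 5 of 6 pairs, but missed the threshold (unadjusted p = 0.00631, adjusted p = 0.413). So 0 of 2 passed, against 0.123% of probe sets. In the second campaign alone FHL passed, at 1.06 (adjusted p = 0.0491, with 0.198% of probe sets called), and in the first it was 0.28 (adjusted p = 1.00). Without the 3 arrays, 1 of them in each line at this time, it was 0.79 (adjusted p = 0.123). Without the low-RCA arrays FHL gave 0.52 (adjusted p = 0.796) and HAT2 -0.06.

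In the dark at minute 1240, a time labelled as growing for CCA1OX only, both genes were higher in CCA1OX, against 0.620% of probe sets called. The HAT2 difference was 1.21 ± 0.29 (adjusted p = 0.0269), a 2.32-fold higher level. That of FHL was 1.06 ± 0.26 (adjusted p = 0.0295), a 2.08-fold higher level. The lowest CCA1OX arrays, 7.92 for HAT2 and 3.46 for FHL, lay above the highest Col arrays, 7.41 and 3.37, and 5 of 5 pairs of the same day and course went this way for each gene. By their light genes Col replicates 1 and 4 lay between light and dark (darkness scores 0.11 and 0.02), while the CCA1OX arrays scored 1.30 to 1.91. The part of this in the differences was not tested. The calls were close to the threshold. That of FHL was lost without any of 8 of the 10 single arrays, all but Col replicate 5 and CCA1OX replicate 3 (adjusted p up to 0.139), and that of HAT2 without Col replicates 1, 2 or 4 or CCA1OX replicates 1, 3, 4 or 5 (adjusted p up to 0.120). In the first and second campaign alone HAT2 differed by 1.23 and 1.18 (adjusted p = 0.253 and 0.243) and FHL by 0.90 and 1.30 (adjusted p = 1.00 and 0.0334). For these fits the share of all probe sets that passed is not given here.

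The double mutant pif4 pil5 was sampled at the time when Col grew and it did not. Compared with Col at dark 280, HAT2 was 2.78-fold lower, with a log2 difference of -1.48 ± 0.27 (adjusted p = 0.00285). FHL differed by -0.55 ± 0.23 (unadjusted p = 0.0239, adjusted p = 0.269). So 1 of 2 passed, against 0.607% of probe sets, and by unadjusted p HAT2 ranked 13 of 22746 in this comparison. The highest mutant array of HAT2, at 6.47, lay below the lowest Col array, at 6.71, while for FHL the ranges overlapped, with Col replicate 4 at 2.60 below every mutant array. HAT2 kept its call in each of 12 fits that left out a single array (-1.68 to -1.33). Without the low-RCA arrays of Col it was -1.68 (adjusted p = 8.83e-05) and that of FHL -0.70 (adjusted p = 0.0816). Of the root markers, PYK10 differed by -0.38 here (unadjusted p = 0.00226, adjusted p = 0.119), with no overlap between the groups, and AT5G66390 by -0.26 (adjusted p = 0.717); their part in the result was not tested.

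All mutant arrays belong to 1 set of array dates, in which Col at dark 280 has a single array, replicate 6, at 8.18 for HAT2 and 3.49 for FHL. The 6 mutant arrays of that set lay at 6.05 to 6.47 and 2.67 to 3.19, all below it. With the set as a block, the HAT2 difference was -1.72 (adjusted p = 0.00277) and that of FHL -0.59 (adjusted p = 0.334). In the second campaign alone they were -1.55 (adjusted p = 0.0254) and -0.35 (adjusted p = 0.585).

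Compared with CCA1OX at dark 280, both genes were lower in pif4 pil5, against 8.68% of probe sets called. HAT2 fell 3.07-fold, with a log2 difference of -1.62 ± 0.27 (adjusted p = 8.19e-05). FHL fell 2.32-fold, with a log2 difference of -1.21 ± 0.23 (adjusted p = 0.000718). HAT2 did not overlap between the groups. For FHL the mutant reached 3.19 and CCA1OX started at 2.99, in replicate 2, which stood apart by its light genes, and the other 5 CCA1OX arrays started at 3.81. Each call was kept when any single array was left out. In the set of array dates that holds the mutant, CCA1OX at dark 280 also has a single array, replicate 6. It stood at 8.08 for HAT2 and 4.24 for FHL, above every mutant array. Over 12 alternative fits, the date block and the second campaign among them, the HAT2 difference ran from -1.96 to -1.60. Over 11 such fits that of FHL ran from -1.42 to -1.20. Of the root markers, PYK10 also fell in pif4 pil5 here, with a difference of -0.44 (adjusted p = 0.0126), and AT5G66390 differed by -0.67 (adjusted p = 0.133); their part in the result was not tested. The green tissue marker RCA differed by -0.02.

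Against Col at dark 1240, the other dark group labelled not growing, pif4 pil5 differed by -0.65 ± 0.28 in HAT2 (unadjusted p = 0.0242, adjusted p = 0.235) and by -0.39 ± 0.24 in FHL (adjusted p = 0.418), so 0 of 2 passed, against 0.426% of probe sets. The mutant was lower in 5 of 5 pairs of the same day and title number for each gene. Those with title number 1 set mutant arrays of the second campaign against Col arrays of the first. Whether mutant and Col arrays are paired was not checked. HAT2 did not overlap, with a lowest Col array of 6.52, and FHL did, with a lowest Col array of 3.03. Since the share of all probe sets without overlap is not given, nothing is drawn from this. Comparisons that share a group, such as those of pif4 pil5 and CCA1OX with Col at dark 280, stand side by side and are not independent of each other.

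Neither gene passed the threshold between days. With day as a term beside the groups, day 6 minus day 4 was 0.18 ± 0.17 for HAT2 (adjusted p = 0.502) and -0.14 ± 0.14 for FHL (adjusted p = 0.561), so 0 of 2 passed, where 20.2% of all probe sets did. HAT2 deviated from its group means by an average of -0.11 on day 4 (18 arrays), 0.06 on day 5 (16 arrays) and 0.07 on day 6 (14 arrays), and FHL by 0.10, -0.08 and -0.04. The SD of these deviations on a day lay between 0.29 and 0.51, wider than the means.

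The levels were also set out by campaign within each group. HAT2 means in the first and second campaign were 7.65 and 6.49 in Col light 120, 7.12 and 6.52 in Col light 1080, 7.13 and 6.49 in CCA1OX light 120 and 6.87 and 6.62 in CCA1OX light 1080. All 4 light groups were thus higher in the first campaign, and in each of them but Col light 1080 the lowest array of the first lay above the highest of the second. In the dark the first and second means were 7.63 and 7.78 in Col dark 280, 6.82 and 6.97 in Col dark 1240, 7.51 and 8.19 in CCA1OX dark 280 and 8.06 and 8.15 in CCA1OX dark 1240, each lower in the first. FHL was also higher in the first campaign in all 4 light groups, by means of 2.83 against 2.60, 2.90 against 2.56, 3.07 against 2.75 and 2.99 against 2.65 in the same order. In the dark its first and second means were 3.56 and 3.17 in Col dark 280, higher in the first, and 3.14 and 3.32 in Col dark 1240, 3.83 and 4.23 in CCA1OX dark 280 and 4.04 and 4.62 in CCA1OX dark 1240, lower in the first. These campaign differences were not tested, and time course and campaign cannot be told apart in these lines.

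The pair was also compared directly, by whether HAT2 and FHL changed by unequal amounts. For each array FHL was subtracted from HAT2, and the groups were compared by an exact two-sided permutation test in 15 comparisons, with p adjusted over them. Between pif4 pil5 and Col at dark 280 HAT2 changed by -0.93 more than FHL (exact permutation p = 0.00216, the smallest these group sizes allow, adjusted p = 0.0325). FHL was read in the dim part of the array, where RMA can compress differences. The part of this in the unequal change was not tested. The mutant and Col arrays did not overlap in HAT2 minus FHL, nor did they when a single array was left out. The exact p moves in coarse steps at these group sizes. This call was lost when any of the 6 mutant arrays was left out (adjusted p = 0.0649) and kept when any Col array was left out. Between dark 280 and dark 1240 in Col the change in HAT2 exceeded that in FHL by 0.67 (exact permutation p = 0.0173, adjusted p = 0.130). Between pif4 pil5 and CCA1OX the value was -0.40 (exact permutation p = 0.0303, adjusted p = 0.152), which passed without CCA1OX dark 280 replicate 4 (-0.50, exact permutation adjusted p = 0.0325), and the remaining 12 comparisons had an adjusted p of 0.258 or more. At the CCA1OX late step it was -0.09 (exact permutation adjusted p = 0.897), with changes of 1.32 and 1.42.

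**Figure D4:**
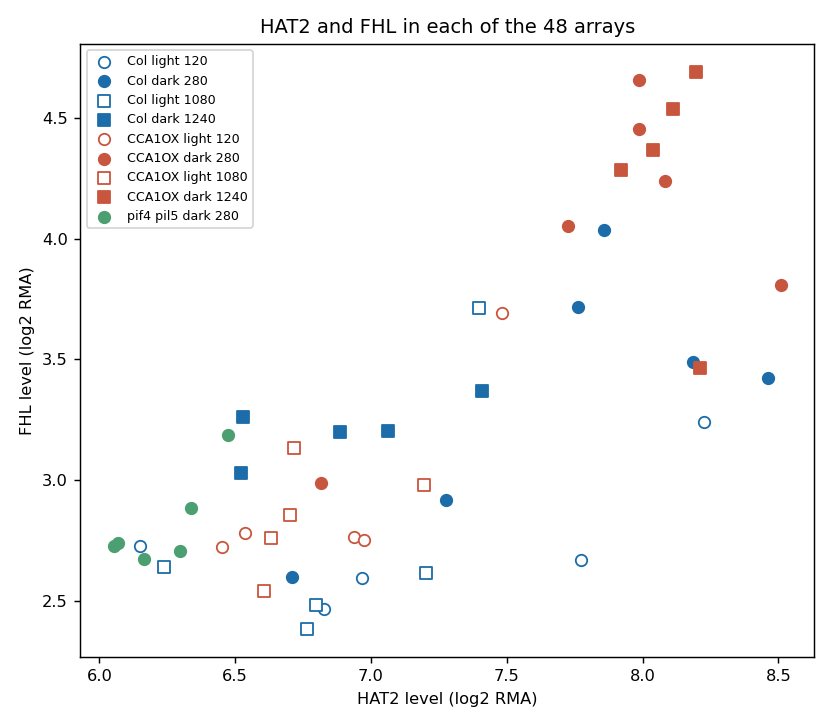
FHL level against HAT2 level, both in log2 RMA units, in each of the 48 arrays, with filled symbols for dark and open symbols for light groups. The CCA1OX dark arrays lie toward the upper right, except dark 280 replicate 2 (HAT2 6.82, FHL 2.99), which lies among the light arrays. The pif4 pil5 arrays lie at the lower left. Col light 120 replicates 1 and 2 reach HAT2 levels of 8.23 and 7.77 with FHL at 3.24 and 2.67.

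Over the 48 arrays the levels of HAT2 and FHL correlated with Pearson r = 0.755 (Spearman rho = 0.690), and over the 9 group means with r = 0.850 (rho = 0.650). The correlation of their deviations from the group means was 0.574 over 48 arrays, so arrays high in one gene for their group tended to be high in the other. Within the lines r was 0.590 over the 21 arrays of Col and 0.878 over the 21 of CCA1OX. It was 0.803 over the 28 dark arrays and 0.495 over the 20 light arrays. Arrays of the same group, day and time course share growth and processing, so these values describe the arrays and carry no test.

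Among 13512 other single-gene probe sets, the one whose levels followed HAT2 most closely over the 48 arrays was that of IAA29, an Aux/IAA repressor of the auxin response (r = 0.907). The same gene came first for FHL (r = 0.881). After IAA29, HAT2 was followed by AT5G62280 (0.864), AT3G42800 (0.851), AT5G06930 (0.848) and WES1, an auxin-conjugating GH3 enzyme gene (0.847). FHL was followed by AT1G55840 (0.862), AT5G50335 (0.861), AT4G25260 (0.842) and AT1G21830 (0.840). Over the 9 group means these 10 values lay between 0.910 and 0.994, and within groups between 0.534 and 0.815. FHL ranked 19 among the correlates of HAT2, and HAT2 ranked 29 among those of FHL.

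At the other end, HAT2 ran most opposite to the 2 probe sets of SDRB (r = -0.742 and -0.705) and to AT1G28600 (-0.675). FHL ran most opposite to the light-high genes AT3G44450 (-0.826) and AT3G52740 (-0.783), and then to the glycosyltransferase gene UGT74D1 (-0.767). For HAT2 the values of AT3G44450 and AT3G52740 were -0.674 and -0.609. HYH, which encodes a bZIP factor related to HY5, gave -0.727 with FHL and -0.488 with HAT2. These r values are descriptions over arrays that share libraries and groups, and the correlations of the pair with one gene were not tested against each other.

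The lists of related genes hold few named members on this array. Of 10 HD-Zip II genes HAT2 alone had a single-gene probe set named here, and of 14 phytochrome A pathway genes FHL alone, so relatives such as HAT4, HAT1, HAT3 and FHY1 are not analysed here. Of 15 shade markers 4 were named, the pair with IAA29 and AT1G69570. Counts and medians of the shade markers therefore contain the values of the pair and are no separate support for them. Of 22 auxin response genes 4 were named, IAA29, WES1, GH3.3 and GH3.1, of which GH3 enzymes join auxin to amino acids.

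At the late step of CCA1OX all 4 shade markers, the pair among them, rose, where 4.32% of probe sets passed. Their median difference was 1.37 against 0.01 over all probe sets. The log2 differences of IAA29 and AT1G69570 were 4.13 (adjusted p = 0.000938) and 1.32 (adjusted p = 0.00613). Of the auxin genes WES1 rose by 1.39 and GH3.3 by 1.84, and GH3.1 differed by 0.31 (adjusted p = 0.690). All 3 light signalling genes fell, HYH by 3.04, AT3G52740 by 2.39 and AT3G44450 by 1.94. At the late step of Col 0 of 4 shade markers, 0 of 4 auxin genes and 0 of 3 light genes passed, with medians of 0.17, 0.16 and -1.27, but only 0.0747% of all probe sets passed there.

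At the early step of CCA1OX 2 of 4 shade markers rose, FHL and IAA29 (3.19, adjusted p = 0.0214), with a median of 1.03 over the 4, beside 3 of 4 auxin genes and a fall of 3 of 3 light genes, where 1.43% of all probe sets passed. At the early step of Col, where 1.02% did, 0 of 4 shade markers passed (median 0.57), with IAA29 at 2.34 (adjusted p = 0.110) and AT1G69570 at 0.34 (adjusted p = 0.808). There GH3.3 rose by 2.43 (adjusted p = 0.000643) and WES1 by 0.99 (adjusted p = 0.0231), and HYH fell by 2.33 (adjusted p = 0.0212). Between dark 280 and dark 1240 in Col, where 0.101% passed, 1 of 4 shade markers was higher at dark 280, AT1G69570 (1.49, adjusted p = 0.0108), as were GH3.3 (2.12) and WES1 (1.26).

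Between the lines at dark 1240 all 4 shade markers, the pair among them, were higher in CCA1OX, where 0.620% of probe sets passed. Their median was 1.88 against -0.01 over all probe sets. The differences of IAA29, AT1G69570 and WES1 were 3.61 (adjusted p = 0.00720), 2.55 and 1.74, while that of GH3.3 was 1.04 (adjusted p = 0.510). The 3 light genes did not pass (median -0.84). In pif4 pil5 against Col at dark 280, where 0.607% of probe sets passed, 3 of 4 shade markers were lower, HAT2, IAA29 (-3.26, adjusted p = 0.0149) and AT1G69570 (-1.27, adjusted p = 0.0186), with FHL as the fourth. WES1 fell by 1.52 and GH3.3 fell by 1.63 (adjusted p = 0.0298), and 0 of 3 light genes passed (median 0.44). Against CCA1OX at dark 280, where 8.68% passed, all 4 shade markers, the pair among them, were lower in the mutant. Their median was -1.73, and IAA29 differed by -4.26.

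**Figure D5:**
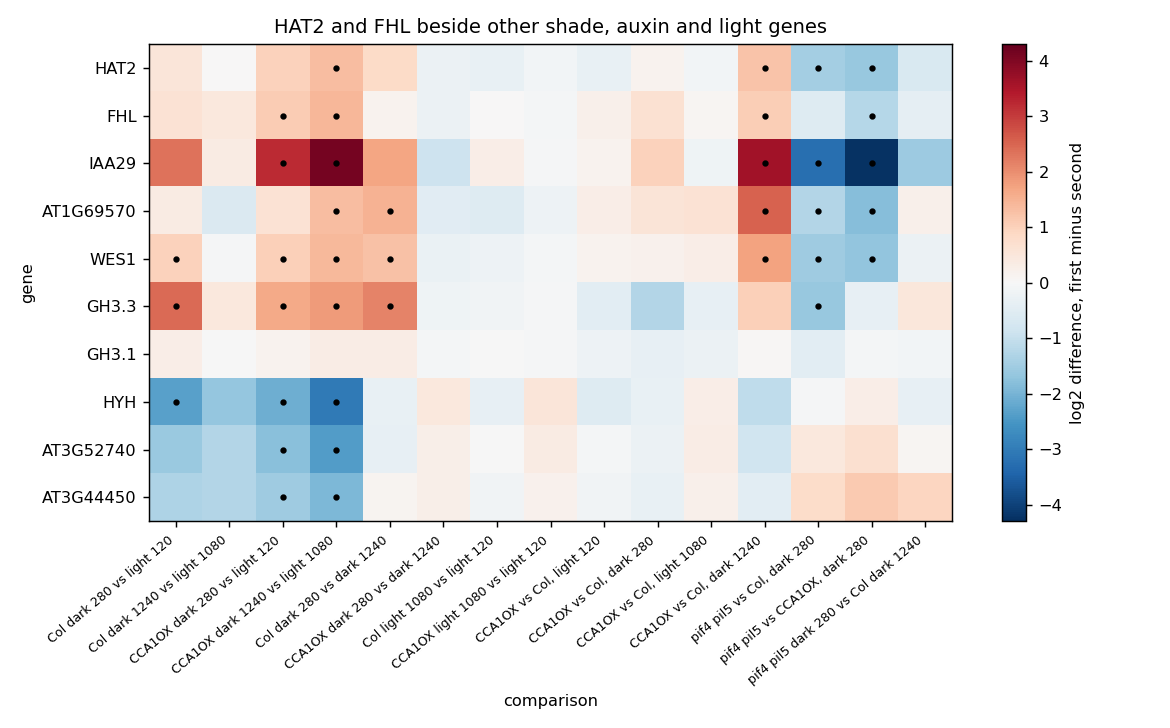
Log2 differences, first group minus second, of HAT2, FHL and named shade, auxin and light genes (rows) in 15 comparisons (columns), as colour. Dots mark an adjusted p under 0.05; at the late step of CCA1OX both genes carry a dot beside IAA29 (4.13), and the light genes HYH, AT3G52740 and AT3G44450 carry one in the opposite colour.

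In the remaining comparisons 0 members of the shade, auxin and light lists passed, and the share of all probe sets that did differed widely between them. It was 0% in limma between the light times and between the dark times of CCA1OX and in the 3 tests of differences between steps or lines. It was 0.0659% between the light times of Col, 0.246%, 0.123% and 0.154% between the lines at light 120, dark 280 and light 1080, and 0.426% between pif4 pil5 and Col dark 1240. Counts of 0 among so few genes say little where so few probe sets passed. Between days, where 20.2% passed, 0 of 4 shade markers, 0 of 4 auxin genes and 0 of 3 light genes did.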

How the data were processed

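The authors deposited log2 expression values per probe set of Affymetrix ATH1 arrays, made by RMA (background correction, quantile normalization and probe summary) with the affy package, per the submitters' processing notes; the affy version is not given in the sources used here. RMA can compress differences of dim probe sets such as that of FHL. No column of other samples was present in the table. After 64 control probe sets were left out, 22746 were tested. Names came from the platform annotation, updated by locus through the RefSeq table (TAIR10.1), which lists PIL5 also as PIF1; 13513 probe sets had a single gene, 503 several, and 8730 were not listed.

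Group means over the 48 arrays (39 residual degrees of freedom) were fitted per probe set in R 4.3.3 with limma 3.58.1. Its moderated two-sided p was adjusted over the 22746 probe sets (Benjamini-Hochberg, threshold 0.05) in each of 19 comparisons. The fit was tested on simulated data. Array medians lay between 4.57 and 4.80, no pair of arrays was identical, and the number of arrays limits the precision. The members, gene lists, tests and the 3 arrays left out were chosen with earlier results of these data known. Named genes were the pair, fixed relatives, the largest called list members and, for each of the pair, the 5 highest and 3 lowest correlates. Replicate numbers in the text run within a group over days and time courses. The number in the titles, 1 or 2, names the time course. Between arrays of Col and CCA1OX the mean correlation of residuals was 0.297 for the same course and day. It was 0.078 for other days of a course and -0.158 across courses, so the pairing in these lines is mostly by day within a course. The main fit did not use this pairing. The blocks entered title number and day as separate terms, so no fit had day within a course as a block. Counts of pairs and statements of overlap are given beside the fits and carry no test. Alternatives were blocks for title number, day and array date, each campaign alone, 2 other scalings, a dim filter, another variance prior, the compared groups alone, 45 arrays and single arrays left out; fits without 5 arrays and without 2 arrays low in RCA were added after seeing the data.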

Additional observations from a re-analysis of the deposited data

Results flagged for a closer look

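In 3 groups the highest array lay far from the rest, by the gap to its nearest neighbour as a share of the range of the group (Dixon's test). HAT2 in CCA1OX light 1080 replicate 3 stood at 7.20, against 6.60 to 6.72 in the other 4 arrays. FHL in Col light 1080 replicate 3 stood at 3.71, against 2.38 to 2.64 in the other 4. FHL in CCA1OX light 120 replicate 1 stood at 3.69, against 2.72 to 2.78. All 3 are light arrays of the first campaign. The second of them scored as dark by its light genes (1.17) and the third lay between light and dark (-0.53), while the first scored as light (-1.12). The test was run on 18 sets of values, a gene in a group, and chance flags about 1 in 20.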

How the results depend on the processing

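All differences here are log2 differences from limma, and the cause of each change was not tested. The replicate block by title number changed no call. HAT2 in pif4 pil5 against Col stayed at -1.48 with this block. Both groups hold the title numbers in equal parts, so that value could not move and is no check of the difference. The replicate block with day brought HAT2 at the CCA1OX early step past the threshold (0.98, adjusted p = 0.0484), as did the array date block (0.93), the dim filter (0.98, fewer probe sets tested), the second campaign alone (1.70), 45 arrays (1.18), the fit without 5 arrays (1.33) and the fit without the 2 low-RCA arrays (0.98). FHL at that step missed it with only the groups compared (1.09) and in the first campaign (0.76), and has no value under the dim filter, which removes it. In the first campaign alone, with fewer arrays, the calls at the CCA1OX late step (HAT2 1.18, FHL 1.05) and between the lines at dark 1240 (HAT2 1.23, FHL 0.90) were missed. Between the lines at dark 1240 HAT2 also missed it in the second (1.18). FHL passed between the lines at dark 280 in the second campaign (1.06) and without 5 arrays (0.79), at the Col early step with 45 arrays (0.71) and without 5 (0.84), and at the Col late step without 5 (0.68). HAT2 passed at the Col early step without 5 arrays (0.87, adjusted p = 0.0343). That fit leaves out arrays by their light genes, so it is not independent of light to dark steps. The share of all probe sets that passed in it is not given here. Signs turned in values that missed the threshold with all arrays. In the first campaign these were HAT2 at the Col early (-0.023) and late step (-0.30), between the lines at dark 280 (-0.12) and between days (-0.030). In the second they were FHL between the Col dark times (-0.15), HAT2 between the CCA1OX dark times (0.039), HAT2 and FHL between the Col light times (0.030 and -0.037), HAT2 between the CCA1OX light times (0.12), HAT2 between the lines at light 120 (0.0067) and light 1080 (0.10), and FHL in the late minus early step of Col (0.18). Median centring turned HAT2 at the Col late step (-0.012), the date block turned FHL between the Col light times (-0.00067), and 45 arrays turned the latter (-0.21) and HAT2 between the lines at light 1080 (0.020). Without 5 arrays these were -0.085 and 0.020, and the CCA1OX light times gave 0.045 for HAT2 and 0.098 for FHL. Without the 2 low-RCA arrays HAT2 between the lines at dark 280 turned to -0.056. A second quantile normalization turned the unequal change of HAT2 and FHL between the CCA1OX dark (0.0029) and light times (0.00095). With each array left out in turn, ranges that crossed the threshold were 0.84 to 1.18 (HAT2) and 0.97 to 1.30 (FHL) at the CCA1OX early step and 1.12 to 1.35 and 0.95 to 1.26 between the lines at dark 1240. For the unequal change they were -1.04 to -0.79 in pif4 pil5 against Col and -0.50 to -0.23 against CCA1OX. Ranges that crossed 0 were -0.16 to 0.13 (HAT2, Col late step), -0.21 to 0.15 (FHL, Col light times), -0.21 to 0.045 and -0.16 to 0.098 (HAT2 and FHL, CCA1OX light times), -0.056 to 0.35 (HAT2, lines at dark 280), -0.27 to 0.020 and -0.0099 to 0.32 (HAT2 and FHL, lines at light 1080) and -0.33 to 0.059 (FHL, late minus early step of Col). For the unequal change those were -0.36 to 0.059 (Col early step), -0.18 to 0.22 (CCA1OX dark times), -0.091 to 0.067 (CCA1OX light times) and -0.074 to 0.25 (lines at dark 1240). The number of arrays and the dim signal of FHL limit what these comparisons can show.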
